A study of Homo sapiens with 18 samples.

Results

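Angiopoietin-like proteins (ANGPTL) are secreted proteins, several of which hold back the lipases that release fatty acids from circulating triglyceride. The 6 genes described here are ANGPTL4, ANGPTL6, ANGPTL8, LPL, LIPG and LMF1. They were chosen by name as the angiopoietin-like genes and the lipoprotein lipase genes of interest in this experiment, with no threshold on a measured value, and they are 6 of the 61806 genes in the count table. A filter on low counts kept 5 of them among the 19743 genes tested, and LPL was not kept.

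RNA was sequenced from HepG2, a human hepatoma line, and from APOA4-KO, a line made from HepG2 with CRISPR-Cas9 and 2 guide RNAs directed at the stretch of APOA4 from exon 1 to exon 3 and grown from picked single colonies. Cells of each line were taken at 21% oxygen (0 h) and at 24 h and 48 h of culture in 1% oxygen, and each of the 6 groups has 3 libraries. APOA4 encodes a lipid-carrying apolipoprotein, and the experiment asked how its loss alters the transcriptome of hypoxic liver cells. The HepG2 groups carry no edit, and the APOA4-KO groups carry the edit at all 3 times. A difference between the lines therefore holds the edit together with every other difference between a derived line and its parent. No 24 h or 48 h culture at 21% oxygen is among the 18 libraries, so hypoxia and time in culture cannot be told apart.

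Lipoprotein lipase (LPL) and endothelial lipase (LIPG) work outside the cell at the vessel wall, LPL mainly on triglyceride-rich particles and LIPG mainly on the phospholipids of high-density lipoproteins. LMF1 is a chaperone of the endoplasmic reticulum that such lipases need in order to fold and leave the cell. ANGPTL4 inactivates LPL and is a classical target of the peroxisome proliferator-activated receptors and of hypoxia-inducible factors, and ANGPTL8 also limits the activity of LPL. ANGPTL6 is a secreted relative that has been linked to energy metabolism and is not known as a main lipase inhibitor.

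All 3 angiopoietin-like genes lie on chromosome 19 (GRCh38, GENCODE v29), ANGPTL4 at chr19:8363289-8374373 and ANGPTL8 at chr19:11237450-11241943, both on the plus strand. ANGPTL8 lies within DOCK6, which runs in the opposite direction. The 250 bases before the RefSeq start (GRCh38.p14) follow, read along the gene, for ANGPTL4 and ANGPTL8, which rose in hypoxia in both lines, and for LIPG (chromosome 18, chr18:49560699-49599182, plus strand), which did not rise. Capitals mark ACGTG or GCGTG, the core letters of the element that hypoxia-inducible factors bind, or their reverse complement where the match is on the other strand.
ANGPTL4 (chr19:8363905-8364154): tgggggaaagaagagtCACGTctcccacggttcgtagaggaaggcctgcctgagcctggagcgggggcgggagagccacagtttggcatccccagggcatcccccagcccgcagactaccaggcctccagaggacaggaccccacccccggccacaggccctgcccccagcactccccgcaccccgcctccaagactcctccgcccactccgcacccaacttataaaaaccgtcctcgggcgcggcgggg
ANGPTL8 (chr19:11239369-11239618): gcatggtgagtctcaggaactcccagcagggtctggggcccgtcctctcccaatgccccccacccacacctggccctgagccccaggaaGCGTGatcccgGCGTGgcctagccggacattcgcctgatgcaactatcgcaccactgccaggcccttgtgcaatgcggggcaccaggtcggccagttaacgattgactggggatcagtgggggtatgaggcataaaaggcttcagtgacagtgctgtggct
LIPG (chr18:49561807-49562056): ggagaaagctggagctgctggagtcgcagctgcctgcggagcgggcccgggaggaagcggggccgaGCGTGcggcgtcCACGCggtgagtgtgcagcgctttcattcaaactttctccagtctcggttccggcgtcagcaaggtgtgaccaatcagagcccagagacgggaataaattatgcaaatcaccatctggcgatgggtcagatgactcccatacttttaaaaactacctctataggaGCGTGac
The RefSeq starts of these genes lie downstream of their GENCODE starts, so the windows printed lie inside the gene spans given. ANGPTL4 had 1 ACGTG, on the minus strand and 234 bases before the RefSeq start, ANGPTL8 had 2 GCGTG, and LIPG had 3 GCGTG. ANGPTL6 and LMF1 each had 1 GCGTG in the same window. The motifs ACGTG and GCGTG were searched on both strands, and they cannot both match at the same place on the same strand. Of 35116 RefSeq windows of the same length, 18.5% held ACGTG, 32.2% held GCGTG and 43.2% held either, so the match itself is common. The direct repeat of AGGTCA with a single base of any kind between the copies is a sequence bound by peroxisome proliferator-activated receptors. An exact match was in none of these 5 windows and in 0.0171% of all windows. A match this rare could hardly be met in 5 windows, so nothing is read from its absence.

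The depth was high and alike in all libraries, with total counts from 76481820 to 91604947, so that 1 count was 0.0106 to 0.0139 CPM (counts as a share of the TMM-adjusted library size). Markers of hepatoma cells summed to 43430 to 61470 CPM in a library (8 of 8 tested). The sums were 6.02 to 15.6 CPM for 6 macrophage markers, 28.4 to 53.8 for fibroblast markers and 8.44 to 16.3 for endothelial markers. Such sums do not compare single markers between the lines. At 0 h AFP was 128 to 133 CPM in HepG2 and 949 to 967 CPM in APOA4-KO, whereas APOA1 was 6490 to 6645 and 5574 to 5931 CPM. The edited gene, APOA4, was still counted in APOA4-KO, at 6.99 to 8.54 CPM over its 9 libraries, and its level was lower than in HepG2 at 0 h by a log2 fold change of -0.23 (adjusted p = 0.0404), at 24 h by -1.35 and at 48 h by -1.29. A count over the whole gene does not check the deletion. CA9, a widely used hypoxia marker, had mean levels of 12.1, 204 and 96.1 CPM in HepG2 before hypoxia, after 24 h and after 48 h, and 38.4, 304 and 410 CPM in APOA4-KO, which was higher at all 3 times. EPO, the erythropoietin gene and another hypoxia-inducible gene, had 5.26, 5.82 and 13.4 CPM in HepG2, where it rose by 48 h but did not pass at 24 h (adjusted p = 0.330), and 8.58, 14.5 and 13.05 CPM in APOA4-KO, where it rose by 24 h. In bulk RNA, more cells with a transcript and more transcript in each cell cannot be told apart.

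Levels were compared between the genes on the FPKM scale, which divides by gene length. ANGPTL8 was the most abundant of the 6 in every group, with mean FPKM of 37.1, 64.3 and 85.5 in HepG2 at 0 h, 24 h and 48 h and of 28.2, 67.9 and 140.2 in APOA4-KO. ANGPTL4 was next, with a mean FPKM from 4.01 in HepG2 at 0 h to 38.5 in APOA4-KO at 48 h. LMF1 lay between 0.847 and 1.51 FPKM, LIPG between 0.253 and 0.727 and ANGPTL6 at or below 0.343. The FPKM of LIPG was computed over a length near 13463 bases and that of ANGPTL8 over 1250, as the counts and totals imply, so levels of different genes rest on the gene models used.

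**Figure D1:**
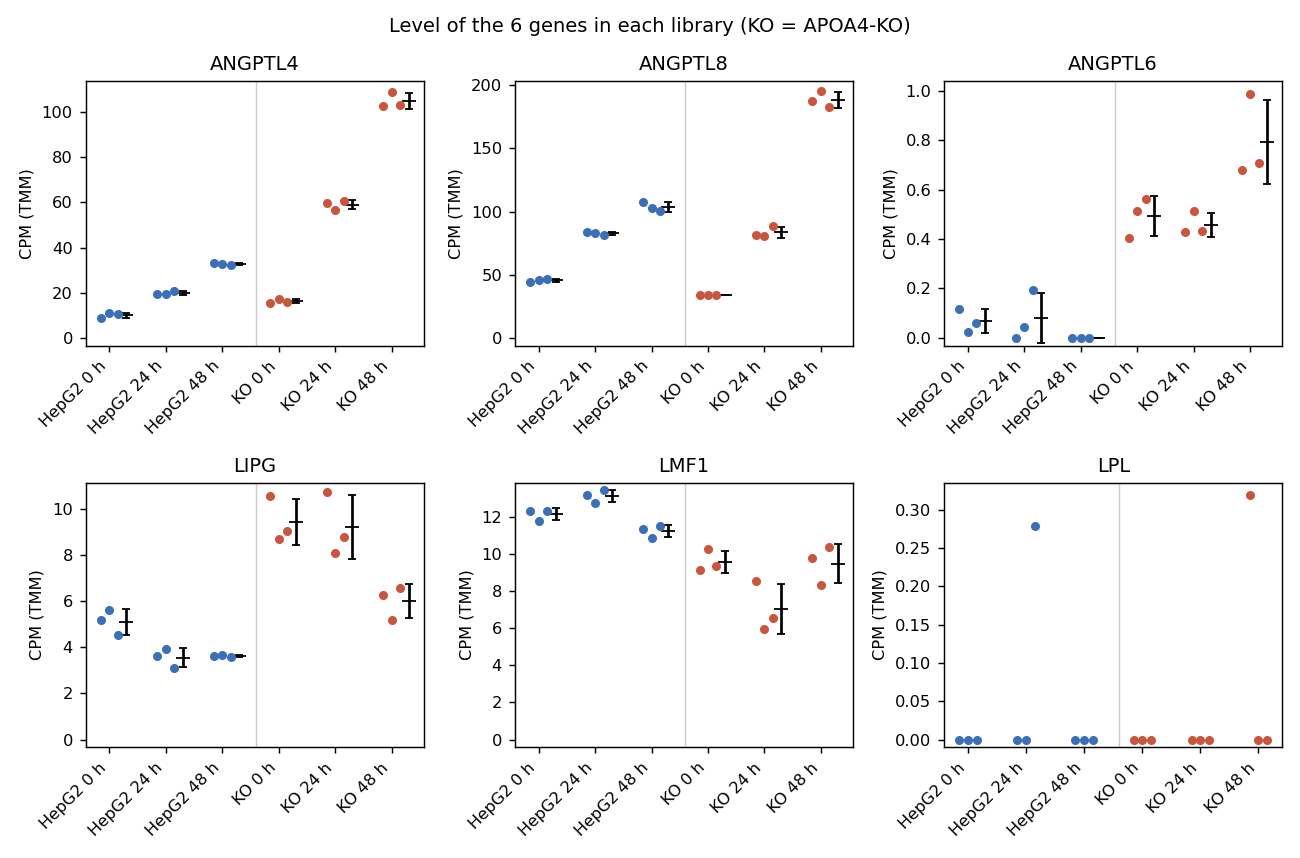
CPM (TMM) of the 6 genes in each of the 18 libraries; blue points are HepG2, red points APOA4-KO, and the black marks are the mean and SD of 3 libraries (not drawn for LPL). ANGPTL4 and ANGPTL8 climb with time in both lines, LIPG and ANGPTL6 are higher in APOA4-KO, and LPL is at 0 in 16 of 18 libraries.

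ANGPTL4 rose with time at 1% oxygen in both lines and was higher in APOA4-KO at all 3 times. In HepG2 its level was 8.66, 10.8 and 10.5 CPM in the 3 libraries at 0 h, 19.4, 19.5 and 20.9 CPM at 24 h, and 33.0, 32.6 and 32.2 CPM at 48 h. In APOA4-KO it was 15.3, 17.2 and 16.0 CPM before hypoxia, 59.7, 56.8 and 60.6 CPM after 24 h, and 102.5, 108.7 and 103.2 CPM after 48 h. No 2 of the 6 groups overlapped, and the order from low to high was HepG2 0 h, APOA4-KO 0 h, HepG2 24 h, HepG2 48 h, APOA4-KO 24 h and APOA4-KO 48 h. From 0 h to 48 h the increase was 3.27-fold in HepG2 (log2 fold change 1.71, SE 0.07, edgeR adjusted p = 5.4e-13) and 6.47-fold in APOA4-KO (2.69, SE 0.07, adjusted p = 1.4e-16). The line difference was 1.62-fold at 0 h, 2.96-fold at 24 h and 3.21-fold at 48 h, with adjusted p = 1.4e-07, 3.6e-13 and 6.2e-14 from edgeR. The increase itself differed between the lines, by 0.87 on the log2 scale at 24 h (SE 0.09, adjusted p = 5.7e-07) and by 0.99 at 48 h (SE 0.09, adjusted p = 6.1e-08).

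Of all tested genes, 1.35% had a larger log2 fold change than ANGPTL4 from 0 h to 48 h in APOA4-KO, and 2.35% in HepG2. Between the lines, 12.7% of genes had a larger log2 fold change before hypoxia, 4.4% after 24 h and 5.12% after 48 h. Over the shorter steps the share was 7.63% in HepG2 and 2.67% in APOA4-KO from 0 h to 24 h, and 6.7% and 7.28% from 24 h to 48 h.

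ANGPTL8 also rose with time in both lines, but its line difference changed direction between 0 h and 48 h. In HepG2 its level was 44.0, 45.5 and 47.0 CPM before hypoxia, 83.6, 83.3 and 81.3 CPM after 24 h, and 107.6, 103.1 and 100.3 CPM after 48 h. In APOA4-KO it was 34.2, 33.9 and 33.7 CPM before hypoxia, 81.7, 80.5 and 88.3 CPM after 24 h, and 188, 195 and 183 CPM after 48 h. In CPM the 2 lines overlapped at 24 h alone, where the log2 fold change was 0.01 (95% interval -0.07 to 0.10, adjusted p = 0.827 from edgeR). In FPKM they did not overlap at 24 h, at 63 to 65.1 in HepG2 and 65.8 to 70.9 in APOA4-KO. Of 27 alternatives, 2 passed at 24 h with the same sign and 2 changed sign. At 0 h the level was lower in APOA4-KO (log2 fold change -0.42, SE 0.04, adjusted p = 1.2e-07), and at 48 h it was 1.82-fold higher (0.86, SE 0.04, adjusted p = 7.6e-13).

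From 0 h to 48 h ANGPTL8 rose 2.28-fold in HepG2 and 5.56-fold in APOA4-KO (edgeR adjusted p = 5.3e-14 and 4.1e-19). The step from 24 h to 48 h was 1.25-fold in HepG2 and 2.26-fold in APOA4-KO. The change from 0 h differed between the lines by 0.44 on the log2 scale at 24 h (SE 0.06) and by 1.29 at 48 h (SE 0.06), with adjusted p = 4.9e-06 and 1.6e-12 from edgeR.

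**Figure D2:**
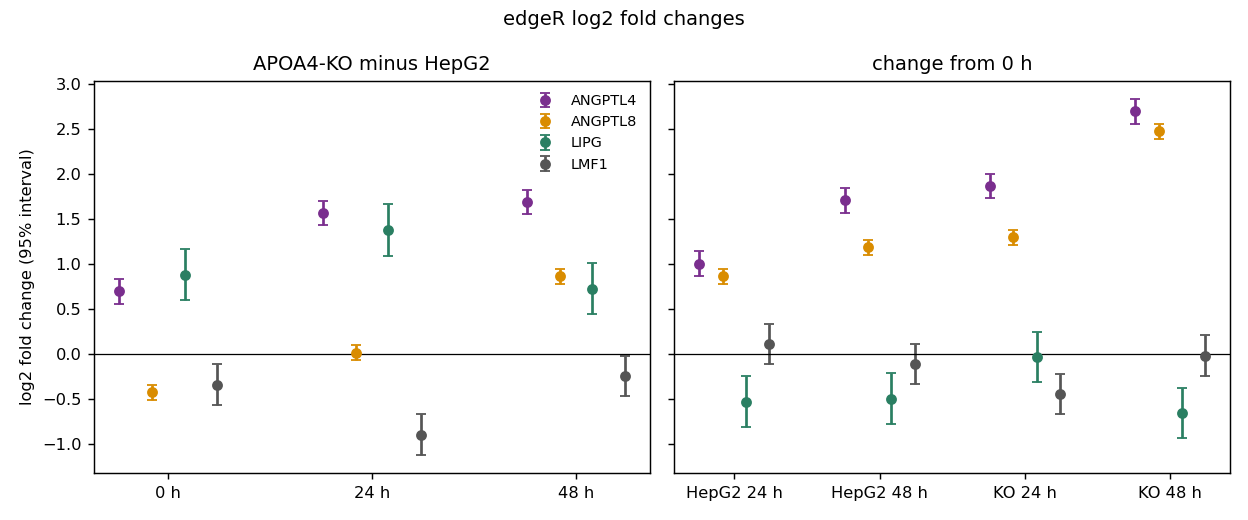
edgeR log2 fold changes with 95% intervals for ANGPTL4, ANGPTL8, LIPG and LMF1, on the left for APOA4-KO minus HepG2 at each time and on the right for the change from 0 h in each line (KO is APOA4-KO). ANGPTL8 goes from -0.42 at 0 h through 0.01 at 24 h to 0.86 at 48 h between the lines, whereas LIPG lies above 0 at all 3 times.

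The 2 inhibitors did not keep a fixed proportion. The ratio of ANGPTL4 to ANGPTL8 within a library, on the FPKM scale, does not depend on the scaling between libraries, and it was examined after the values of both genes had been seen. HepG2 had a ratio of 0.108 ± 0.010 (SD, n = 3) before hypoxia, 0.119 ± 0.0070 after 24 h and 0.155 ± 0.0037 after 48 h. APOA4-KO had a ratio of 0.236 ± 0.015 before hypoxia, 0.349 ± 0.011 after 24 h and 0.275 ± 0.0048 after 48 h. The lowest APOA4-KO library, at 0.221, lay above the highest HepG2 library, at 0.159, and in APOA4-KO the ratio was highest at 24 h whereas in HepG2 it was highest at 48 h. No test was made of this ratio.

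**Figure D3:**
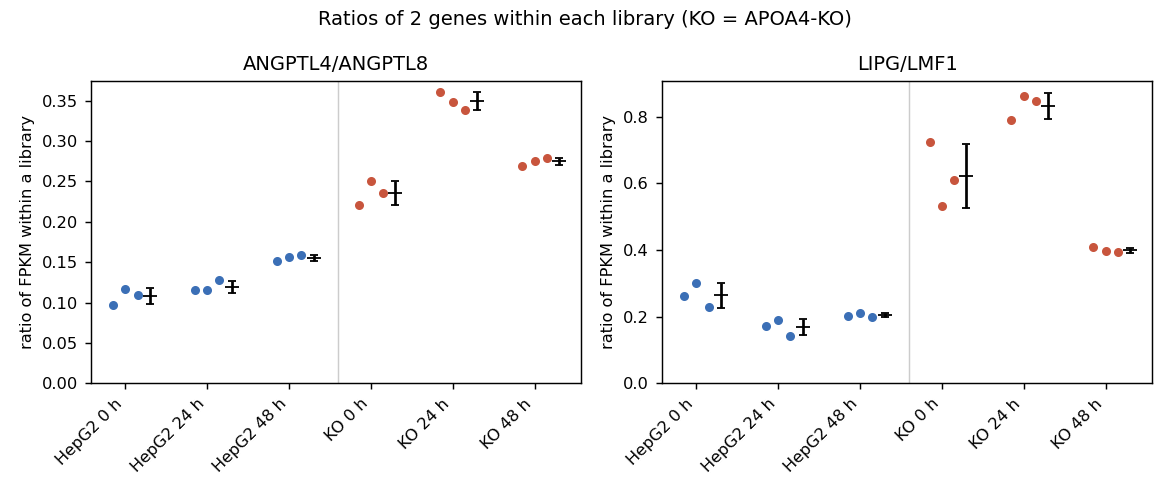
Ratio of the FPKM of 2 genes within each library, ANGPTL4 to ANGPTL8 on the left and LIPG to LMF1 on the right; points are libraries and black marks the mean and SD of 3 (KO is APOA4-KO). Both ratios are higher in all 9 APOA4-KO libraries than in any HepG2 library, from 0.221 against at most 0.159 on the left and from 0.395 against at most 0.301 on the right.

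ANGPTL6 (chr19:10092338-10102796, minus strand) was scarcely detected in HepG2 and detected in every APOA4-KO library. The HepG2 libraries held 10, 2 and 5 counts before hypoxia, 0, 4 and 16 counts after 24 h, and no count in any of the 3 after 48 h. The APOA4-KO libraries held 32, 46 and 49 counts before hypoxia, 36, 40 and 35 counts after 24 h, and 49, 75 and 51 counts after 48 h. The lines did not overlap at any time, and the highest HepG2 library, with 16 counts, lay below the lowest APOA4-KO library, with 32.

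The line difference of ANGPTL6 was 7.14-fold at 0 h (log2 fold change 2.84, SE 0.84, edgeR adjusted p = 0.0160) and 5.64-fold at 24 h (2.50, SE 0.82, adjusted p = 0.0188). At 48 h the 3 HepG2 libraries were at 0 (edgeR adjusted p = 1.9e-05). Against a limit of 3 counts a library, taken as what a 0 allows, the level in APOA4-KO was at least 23.6-fold higher. The call at 0 h was lost without HepG2 0 h replicate 2 (adjusted p = 0.0660) or replicate 3 (0.0541), and that at 24 h without HepG2 24 h replicate 2 (0.0731) or in a fit of the 2 groups alone (0.0520). In HepG2 the level at 48 h was at least 2.02-fold lower than at 0 h and at least 2.37-fold lower than at 24 h (adjusted p = 0.00776 and 0.00483), and neither passed on the FPKM scale. Both bounds rest on 1 library: without HepG2 0 h replicate 1 the first is 1.26 (adjusted p = 0.0326), and without HepG2 24 h replicate 3 the mean at 24 h lies below the limit of a 0 at 48 h, so that no bound remains (adjusted p = 0.0363). At 24 h 1 of the HepG2 libraries was itself at 0. In APOA4-KO none of the 3 time comparisons passed, with log2 fold changes of -0.11, 0.68 and 0.79. Counts of 4 were 2.66 to 3.12 times as frequent as their neighbours in every library. A small count therefore need not be a number of single read pairs. The limit of 3 counts takes no account of this, so the bounds given here may be too high.

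LIPG was higher in APOA4-KO at all 3 times and did not rise in hypoxia in either line. In HepG2 its level was 5.19, 5.64 and 4.52 CPM before hypoxia, 3.61, 3.92 and 3.11 CPM after 24 h, and 3.64, 3.66 and 3.59 CPM after 48 h. In APOA4-KO it was 10.6, 8.69 and 9.05 CPM before hypoxia, 10.8, 8.12 and 8.78 CPM after 24 h, and 6.26, 5.17 and 6.59 CPM after 48 h. At each time the lines did not overlap, but APOA4-KO at 48 h overlapped HepG2 at 0 h.

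The line difference of LIPG was 1.84-fold at 0 h, 2.60-fold at 24 h and 1.65-fold at 48 h (log2 fold changes 0.88, 1.38 and 0.73, edgeR adjusted p = 4.0e-05, 6.1e-08 and 0.000143). In HepG2 LIPG had fallen by 24 h (log2 fold change -0.53, SE 0.13, adjusted p = 0.00516) and did not pass between 24 h and 48 h (0.03, adjusted p = 0.908). The fall by 24 h lost its call in 1 of 27 alternatives. The APOA4-KO libraries gave a log2 fold change to 24 h of -0.03 (adjusted p = 0.881), and the fall came between 24 h and 48 h (-0.62, SE 0.13, adjusted p = 0.000840). APOA4-KO minus HepG2, the change to 24 h differed by 0.50 (95% interval 0.10 to 0.89, edgeR adjusted p = 0.0519). This value missed the threshold here and passed in 7 of 27 alternatives. A line difference in the step from 24 h to 48 h was not tested. For the change from 0 h to 48 h the line difference was -0.16 (95% interval -0.55 to 0.24). The fall from 0 h to 48 h in HepG2, -0.50, lost its call without HepG2 0 h replicate 2 (adjusted p = 0.0580).

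LMF1 (chr16:853634-981318, minus strand), the lipase chaperone, changed little over time in HepG2 and passed through a low at 24 h in APOA4-KO. In HepG2 its level was 12.3, 11.8 and 12.3 CPM before hypoxia, 13.2, 12.8 and 13.4 CPM after 24 h, and 11.3, 10.9 and 11.5 CPM after 48 h. In APOA4-KO it was 9.16, 10.3 and 9.35 CPM before hypoxia, 8.57, 5.98 and 6.58 CPM after 24 h, and 9.76, 8.32 and 10.4 CPM after 48 h. All 9 APOA4-KO libraries lay below all 9 HepG2 libraries, and the 3 APOA4-KO groups overlapped in part.

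Between the lines LMF1 was lower in APOA4-KO at 0 h (log2 fold change -0.34, SE 0.11, edgeR adjusted p = 0.0205) and at 24 h (-0.90, SE 0.11, adjusted p = 8.5e-07), and at 48 h it was -0.25 and missed the threshold (adjusted p = 0.0636). The call at 0 h was lost when HepG2 0 h replicate 1 or 3 or APOA4-KO 0 h replicate 1 or 3 was left out, with adjusted p up to 0.0761. The value at 48 h passed in 7 of 27 alternatives, among them edgeR with library size as the only scaling (-0.40, adjusted p = 0.00476). None of the 3 time comparisons in HepG2 passed, with log2 fold changes from -0.22 to 0.11. In APOA4-KO LMF1 fell to 24 h (-0.45, adjusted p = 0.00197) and rose again to 48 h (0.43, adjusted p = 0.00331). The rise lost its call in 1 of 27 alternatives. The change to 24 h differed between the lines by -0.56 (SE 0.15, adjusted p = 0.00709), and the change to 48 h by 0.09 (adjusted p = 0.702).

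The lipase and its chaperone thus moved in opposite directions between the lines at 0 h and 24 h. The FPKM ratio of LIPG to LMF1 within a library, also examined after the values had been seen, was 0.264 ± 0.036 (SD, n = 3), 0.168 ± 0.024 and 0.204 ± 0.0060 in HepG2 at 0 h, 24 h and 48 h. In APOA4-KO it was 0.621 ± 0.096, 0.832 ± 0.038 and 0.399 ± 0.0071. The ratio was highest in APOA4-KO at 24 h, the group in which LMF1 was lowest.

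LPL itself was at 0 in 16 of 18 libraries. It had 23 counts in HepG2 24 h replicate 3 and 23 in APOA4-KO 48 h replicate 1, at 0.278 and 0.319 CPM, and 0 in the other libraries of both groups. Those libraries also held the highest counts of the fibroblast markers DCN (101 and 120) and COL1A2 (104 and 81). The other fibroblast markers, COL1A1, PDGFRB and LUM, were highest in other libraries. Whether the LPL counts share a source with those of DCN and COL1A2 was not tested. A count of 0 was taken to allow up to 3 counts a library, which is 0.0335 to 0.0370 CPM in the 4 groups with no count. No comparison was made for LPL, which was not detectable at this depth in most libraries.

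Read against all tested genes, the 5 genes gave these counts. Between the lines at 0 h 3 were higher and 2 lower in APOA4-KO, where 12.9% of all tested genes were higher, 17.6% lower and 30.5% passed in all. At 24 h 3 were higher and 1 lower (background 23.6% higher, 24.6% lower, 48.1% in all). At 48 h 4 were higher and none lower (background 23.5% higher, 27.3% lower, 50.8% in all). In HepG2 from 0 h to 24 h 2 rose and 1 fell (background 11.4% higher, 18.3% lower, 29.6% in all), and these were ANGPTL4, ANGPTL8 and, falling, LIPG. From 0 h to 48 h 2 rose and 2 fell (background 13.1% higher, 14.6% lower, 27.7% in all), the latter LIPG and ANGPTL6. From 24 h to 48 h 2 rose and 1 fell (background 18.7% higher, 11.9% lower, 30.5% in all). In APOA4-KO from 0 h to 24 h 2 rose and 1, LMF1, fell (background 21.5% higher, 22.8% lower, 44.4% in all). From 0 h to 48 h 2 rose and 1, LIPG, fell (background 23.9% higher, 25.9% lower, 49.9% in all). From 24 h to 48 h 3 rose and 1 fell (background 21.9% higher, 19.4% lower, 41.3% in all). The change from 0 h differed between the lines at 24 h with 2 more positive and 1 more negative in APOA4-KO (background 16.8% higher, 15.4% lower, 32.2% in all), and at 48 h with 3 more positive (background 18.6% higher, 17.8% lower, 36.4% in all). Without HepG2 0 h replicate 3, 3 of the 5 passed between the lines at 0 h. The gene that rose from 24 h to 48 h in APOA4-KO beside ANGPTL4 and ANGPTL8 was LMF1. All 3 line comparisons and the time comparisons of a line share groups, so these counts are not independent of each other. The members were also chosen with earlier results of these data known, so the counts are a description.

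Reads in exon stretches that 2 genes share bear on several of these values. The sources differ on strand: the sample labels describe a preparation that removes a U-labelled second strand and so marks strand, whereas the study's methods name a kit that does not. Whether the counting used strand is not given, so reads of a gene and of its partner on the opposite strand may not have been told apart. ANGPTL8 shares 350 of its 1223 annotated exon bases (28.6%) with DOCK6 on the opposite strand, and ANGPTL6 shares 442 of 2181 (20.3%) with C19orf66, also opposite. For LMF1 4.79% of exon bases overlap other genes, ANGPTL4 shares 1 base with RAB11B-AS1, and LIPG shares none.

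DOCK6, which encodes a guanine nucleotide exchange factor, was also the gene whose pattern over the 18 libraries was most like that of ANGPTL8 among 12681 genes (Pearson r of log2 CPM 0.990). Its mean level was 85.1, 111.9 and 133.1 CPM in HepG2 at 0 h, 24 h and 48 h and 63.9, 114.1 and 178.7 CPM in APOA4-KO. From 0 h to 48 h the log2 fold change of DOCK6 was 0.65 in HepG2 and 1.48 in APOA4-KO, smaller than the 1.19 and 2.47 of ANGPTL8. Between the lines DOCK6 changed by -0.41, 0.03 and 0.42 at 0 h, 24 h and 48 h, beside -0.42, 0.01 and 0.86 for ANGPTL8. The part of shared reads in these values was not tested. C19orf66 moved the other way from ANGPTL6 between the lines, at -0.21, -0.17 and -0.49, and its correlation with ANGPTL6 was -0.62.

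**Figure D4:**
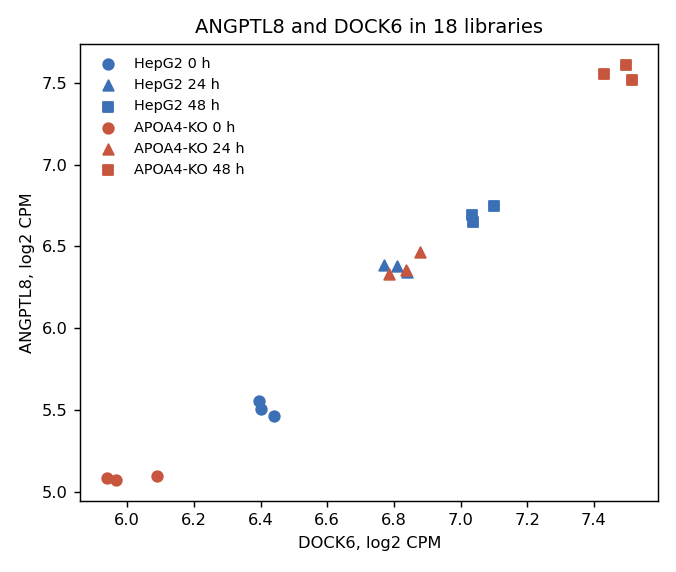
Log2 CPM of ANGPTL8 against that of DOCK6, the gene that overlaps it on the opposite strand, in the 18 libraries; colour marks the line and shape the time. The points lie close to a line (Pearson r 0.990), with APOA4-KO 0 h at the lower end and APOA4-KO 48 h at the upper end.

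The genes most like each of the others in pattern are given as a description, over 18 libraries that share their groups. ANGPTL4 was most like HK2, a hexokinase of glycolysis (r 0.994), FAM13A (0.989) and SLC7A2, a cationic amino acid transporter (0.988). HK2 had mean levels of 79.4, 169 and 330 CPM in HepG2 and 134, 538 and 908 CPM in APOA4-KO, the same order of groups as ANGPTL4. After DOCK6, ANGPTL8 was most like SLC2A3, a glucose transporter (0.986), and ID1, an inhibitor of helix-loop-helix factors (0.985). LIPG was most like ADH4, an alcohol dehydrogenase (0.970), PEG10 (0.961) and RAVER2 (0.957). LMF1 was most like ANKRD13D (0.9495), GPR108 (0.939) and TSPO (0.933), and ANGPTL6 most like SORBS2 (0.948), APBB1 (0.936) and ALDH18A1 (0.934). A correlation over 0.95 was reached by 159 genes for ANGPTL4, 18 for ANGPTL8, 3 for LIPG and none for ANGPTL6 and LMF1.

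The remaining genes of the pathway were taken from lists of other angiopoietin-like genes, other lipases, LPL partners, receptors and regulators, 47 genes in all, of which 41 were tested. Between the lines 8 were higher and 19 lower in APOA4-KO at 0 h, 15 higher and 21 lower at 24 h, and 19 higher and 13 lower at 48 h, with a median log2 fold change of -0.10, -0.26 and 0.14 beside -0.01, 0.01 and -0.04 over all tested genes. As shares of the 41, 65.9%, 87.8% and 78% passed between the lines at the 3 times, where 30.5%, 48.1% and 50.8% of all tested genes did. The change from 0 h differed between the lines for 25 of the 41 (61%) at 24 h and for 28 (68.3%) at 48 h. Of all tested genes, 32.2% and 36.4% did. The lists were chosen with earlier results of these data known, so these shares are a description and not a test of the pathway.

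ANGPTL2, a relative known mainly from inflammation and tissue remodelling, had the larger line differences of the 2 other angiopoietin-like genes tested here. HepG2 had mean levels of 6.71 CPM before hypoxia, 31.4 CPM after 24 h and 12.95 CPM after 48 h, whereas APOA4-KO had 11.9, 52.7 and 96.1 CPM. The line difference was 7.42-fold at 48 h (log2 fold change 2.89, SE 0.06, edgeR adjusted p = 4.8e-18). Unlike ANGPTL4 and ANGPTL8, ANGPTL2 fell from 24 h to 48 h in HepG2 (-1.28, adjusted p = 2.8e-12) and rose in APOA4-KO (0.87, adjusted p = 1.4e-10). ANGPTL1 was higher in APOA4-KO at 0 h (0.55) and lower at 24 h (-0.33), and at 48 h it was -0.17 (adjusted p = 0.272). The call of ANGPTL1 at 24 h was lost when any of 4 libraries was left out, HepG2 24 h replicate 1 or 3 or APOA4-KO 24 h replicate 1 or 3, with adjusted p up to 0.139.

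Of the other lipases, LIPC, the hepatic lipase, was lower in APOA4-KO at 0 h (-0.38) and 48 h (-0.15), and PNPLA2, the adipose triglyceride lipase of lipid droplets, was lower at 24 h (-0.30) and higher at 48 h (0.87). LIPA, the lysosomal acid lipase, was lower at 24 h (-0.26) and 48 h (-0.46). LIPH, a lipase that acts on phosphatidic acid, was lower at 24 h by the most of these (-1.16, SE 0.36, adjusted p = 0.0116), with mean levels of 2.02 CPM in HepG2 and 0.904 CPM in APOA4-KO, and lost its call without APOA4-KO 24 h replicate 2 (-0.94, adjusted p = 0.0629). The call of LIPC at 48 h was lost without APOA4-KO 48 h replicate 1 (adjusted p = 0.0592) or replicate 2 (0.0614), and PNLIPRP2, the fifth lipase tested, passed at no time. LMF2, the relative of LMF1, was lower at 24 h (-0.58) and 48 h (-0.22), beside -0.90 and -0.25 for LMF1, of which the latter did not pass.

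Among the LPL partners, FURIN, a protease that cleaves ANGPTL4, LPL and LIPG, stood out by a line difference of nearly the same size at each time, with log2 fold changes of -1.43, -1.34 and -1.41 at 0 h, 24 h and 48 h. Its mean level was 456, 288 and 452 CPM in HepG2 and 169.6, 113.9 and 170.1 CPM in APOA4-KO, and its change from 0 h did not pass a difference between the lines (adjusted p = 0.129 and 0.788). PCSK7, of the same protease family, was lower at all 3 times (-0.77, -0.76 and -1.79), and PCSK5 was higher at 24 h and 48 h (0.81 and 1.43). SORL1, a sorting receptor that binds LPL, was higher at all 3 times (0.43, 0.27 and 1.47). Of the apolipoproteins that act on LPL, APOC3, an inhibitor, was higher at all 3 times (0.48, 0.54 and 0.32). APOA5, an activator, was higher at 0 h and 24 h (0.69 and 0.62), and APOC2, the cofactor, passed at none (0.24, 0.04 and 0.15). Also in this list, APOC1 was lower at 0 h (-0.18, edgeR adjusted p = 0.0282) and APOE at 24 h (-0.28, adjusted p = 0.0187). Both calls were lost without HepG2 replicate 1 of that time (adjusted p = 0.134 and 0.0518).

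Of the receptors and regulators that passed, the 3 largest line differences at 0 h were those of CD36, a fatty acid transporter (-0.66), CREB3L3, a liver transcription factor of triglyceride metabolism (0.64), and PPARG (0.53). At 24 h they were PPARA (1.24), the integrin gene ITGB3 (1.12) and CREB3L3 (1.04). ITGB3 overlapped between the lines at 24 h, at 0.48, 0.89 and 0.59 CPM in HepG2 and 2.74, 0.55 and 0.99 CPM in APOA4-KO. Its value at 24 h was 0.24 without APOA4-KO 24 h replicate 1 (adjusted p = 0.626), and the call was also lost without HepG2 24 h replicate 1 (0.130) or replicate 3 (0.0987). At 48 h they were PPARG (1.93), ITGB3 (-1.37) and NR3C1, the glucocorticoid receptor gene (1.06), and the call of ITGB3 was lost without APOA4-KO 48 h replicate 2 (-1.19, adjusted p = 0.0527). All 13 regulators passed at 48 h, 10 of them higher in APOA4-KO, and 3 of the 9 receptors were higher and 4 lower, where 23.5% of all tested genes were higher and 27.3% lower. The call of the regulator NR1H3 at 48 h (-0.18) was lost when any of 4 libraries was left out, with adjusted p up to 0.170.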

How the data were processed

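Poly(A) RNA of 18 libraries (2 lines, 3 times, 3 libraries a group) was sequenced as paired reads of 150 bases. The authors trimmed with fastp v0.23.1, aligned with HISAT2 v2.1.0 to GRCh38 and counted with featureCounts of subread v2.0.2, while the submitters' processing notes name StringTie as well. The deposited count table holds whole numbers without normalization, for 61806 genes. The deposited FPKM values, made by the authors by gene length and library total, cover 33601 genes. Strand, pair and multi-mapping settings are not given in the sources used here.

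The main test was edgeR's quasi-likelihood test (edgeR 4.0.16, R 4.3.3) in a single glmQLFit model of the 6 groups, on 19743 genes that filterByExpr retained, with TMM factors. The 11 comparisons were adjusted over all tested genes by Benjamini-Hochberg, with a limit of 0.05. CPM were TMM-scaled, and log2 CPM for correlations used a prior count of 2. A group at 0 was set to 3 counts a library for fold bounds. The scripts were tested on simulated data. Alternatives were DESeq2 1.42.0, RLE factors, library size alone, no filter, each comparison's groups alone, the replicate number as a block, each library left out, and limma 3.58.1 on log2(FPKM + 1) or log2(FPKM + 0.1).

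Groups and replicate numbers were taken from the sample labels. Whether replicates were separate cultures is not stated, so p-values measure the spread between these libraries, which may be technical. Deviations of same-numbered libraries correlated between -0.144 and 0.0511 over 45 pairs, so the numbers were not taken as pairing. The members and lists were chosen with earlier results of these data known. Named were the 6 genes, tested genes of the 3 lists nearest to them (all in the plot of these lists, most in the text), the 3 receptors or regulators with the largest line difference that passed, and for each tested member the 3 genes most alike (mean CPM of at least 1). Genes named by overlap, C19orf66 and RAB11B-AS1, and the within-library ratios were added after the values were seen. Symbols were matched for 61757 gene IDs. Some genes of the pathway are not reported here and were left out of the lists and their counts.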

Additional observations from a re-analysis of the deposited data

Results flagged for a closer look

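The change from 0 h differed between the lines for these members, by the interaction term of the edgeR model. At 24 h the difference, APOA4-KO minus HepG2 on the log2 scale, was 0.87 for ANGPTL4 (adjusted p = 5.7e-07), 0.44 for ANGPTL8 (adjusted p = 4.9e-06) and -0.56 for LMF1 (adjusted p = 0.00709). At 48 h it was 0.99 for ANGPTL4 (adjusted p = 6.1e-08) and 1.29 for ANGPTL8 (adjusted p = 1.6e-12). For ANGPTL6 the fitted difference at 48 h was 6.20 (adjusted p = 0.00622), a value that rests on HepG2 libraries at 0 and is no bound. Differences of this kind were frequent: 32.2% of all tested genes passed at 24 h and 36.4% at 48 h.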

How the results depend on the processing

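Of 1482 values of the 5 tested members over 27 alternatives, 1410 kept direction and side of the threshold, 20 lost and 22 gained a call, and 30 changed sign, all of them values that had not passed in the analysis reported above. The number of members that passed from 0 h to 48 h in HepG2 was 4, and 2 with limma on log2(FPKM + 1), with or without a filter. The number that passed between the lines at 0 h was 5, and 3 to 5 with a library left out. The sign changes were to -0.00097 for ANGPTL8 between the lines at 24 h (DESeq2), to -0.00019, -0.0039 and -0.0023 for LIPG from 24 h to 48 h in HepG2 (DESeq2, RLE factors, groups alone), to 0.0044 and 0.013 for LMF1 from 0 h to 48 h in APOA4-KO (RLE factors, groups alone), and to -0.080, -0.035, -0.071 and -0.035 for the interaction value of LMF1 at 48 h (how its change from 0 h differs between lines) (library size alone, then limma on log2(FPKM + 1), on log2(FPKM + 0.1) and without a filter). With a library left out, the values ranged from -0.011 to 0.042, from -0.052 to 0.114 and from -0.086 to 0.069 for the first 3 of these, from -1.48 to 0.90 for ANGPTL6 from 0 h to 24 h in HepG2, from -0.213 to 0.020 in APOA4-KO, from -0.99 to 1.37 for its interaction value at 24 h, and from -0.140 to 0.076 for LIPG from 0 h to 24 h in APOA4-KO. The cause was not tested.

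No pairing by replicate number was seen in the values (0 of 18 correlated best with their own number). This cannot show whether same-numbered libraries were handled together. With the replicate number as a block 5 members still passed between the lines at 0 h, with no member's call changed in any comparison. Library size as the only scaling shifted the median of all genes by -0.15 between the lines at 48 h and by -0.158 and -0.13 for APOA4-KO at 48 h against 0 h and 24 h, and by -0.172 for the interaction at 48 h. The interaction value of LIPG at 24 h, which missed the threshold, gained a call in 7 of 27 alternatives. Among these were DESeq2 (adjusted p = 0.0414) and edgeR with library size alone (0.0361), and over all alternatives the range was 0.0268 to 0.356. The small counts of ANGPTL6 and LPL limit what this depth can show.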
